A study of Sus scrofa with 15 samples.

Results

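Gene expression in IPEC-J2 cells carrying OV143, a lentiviral vector built to overexpress the microRNA miR-143, was compared with that in the same cells carrying Lv20NC, the control vector of the overexpression arm. The 6 libraries, OV143 replicates 1 to 3 and Lv20NC replicates 1 to 3, were taken by their sample labels from the 15 libraries of the series, which measured RNA in one pig cell line under several lentiviral vectors. IPEC-J2 is a non-transformed epithelial line from the jejunum of a newborn pig. All 6 libraries therefore share the cell line and a lentiviral vector and differ by the vector's cargo, while the dose of virus, the time after infection, any selection and whether a group came from 1 infected pool are not stated in the labels. The other 9 libraries carry the knockdown vectors Lv133KD and Lv143KD and their control Lv3NC. Nothing in the labels ties the 3 libraries of a group to separate cultures, and the p-values therefore speak of the spread among libraries, which may be technical.

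MicroRNAs are short RNAs held by Argonaute proteins that pair, mainly through a stretch near their start called the seed, with sites in the untranslated ends of messenger RNAs, and so lower the stability or translation of those messages. miR-143 is made from the same transcript as miR-145 and is abundant in smooth muscle and other mesenchymal cells of the gut wall, while its level in gut epithelium is low. It is often reduced in colorectal tumours, and its proposed targets include RAS and MAP kinase genes and the prostaglandin synthase gene PTGS2. In the Sscrofa11.1 assembly RefSeq places MIR143 on chromosome 2 from 150578738 to 150578817 and MIR145 close by on the same chromosome from 150580126 to 150580211. The table holds 0 miRNA genes, so the level of miR-143 in these libraries and the action of the vector on it were not checked.

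The 6 libraries had the expression of an epithelial line. The 6 epithelial markers, among them the adhesion gene EPCAM and the keratin gene KRT8, were all above the filter and summed to 1978 to 2776 FPKM (fragments per kilobase of transcript, scaled by the authors to the mapped total). Leukocyte markers summed to 24.1 to 26.2 FPKM, most of it from LCP1, fibroblast markers to 2.08 to 2.58 FPKM and endothelial markers to 5.29 to 7.07 FPKM. Smooth muscle markers summed to 165 to 242 FPKM, nearly all of it from TAGLN, while the defining genes ACTA2 and MYH11 were at or below 0.26 FPKM in every library. Read depth is unknown, since FPKM keeps no read total. Summed over genes, FPKM came to between 518578 and 558042 in Lv20NC, to 531023 and 544973 in OV143 replicates 1 and 3, and to 662022 in OV143 replicate 2, with overlapping groups (exact two-sided permutation test, p = 0.5, where 0.1 is the smallest p that 3 against 3 allows, so this design could not show a difference).

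OV143 replicate 2 stood apart from the other 5 libraries. It held the highest value of the 6 libraries in 4424 of 11506 genes tested and the lowest in 4309, while each other library was highest in 925 to 1710 and lowest in 695 to 1959. Its 100 most abundant genes took 41.4% of its FPKM, against 33.4% to 36.0% in the others. Its sum exceeded the mean of the other OV143 libraries by 124024 FPKM, of which 47.3% lay in 72 ribosomal protein genes. Each gene said below to have risen or fallen also held without this library, by the rule given below, and values without it are printed for the largest changes and the gene lists.

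Genes were tested where 3 or more of the 6 libraries reached 1 FPKM, which left 11506. Among these the OV143 cells had higher expression of interferon-stimulated genes, of genes used in mitosis and of several genes known to respond to low oxygen. They had lower expression of inflammatory cytokine genes, of immediate early genes, of some EGF-family ligand genes and of genes of the amino acid response. The gene lists and their members were chosen with earlier results of these data known. Their counts below, set beside the share over all genes, are therefore descriptions. With all 6 libraries and no block, limma called 0 genes at an adjusted p under 0.05. The smallest adjusted p was 0.059, shared by 4 genes: SLC2A5 and IFIT3, which were higher, and APOBEC1 and RNF39, which were lower. An unadjusted p under 0.05 was found for 1304 genes (11.3% of those tested), of which 510 (4.43%) were higher and 794 (6.9%) lower in OV143. Higher genes thus made up 39.1% of them, a share that moved to 20.2% when libraries were scaled to equal FPKM sums and to 50.3% after quantile normalisation. The 3 libraries of one group lay wholly above those of the other in 2519 genes (21.9%), 1031 of them (8.96%) higher and 1488 (12.9%) lower in OV143.

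Libraries of replicate number 1, 2 and 3 deviated together, at correlations of 0.23, 0.72 and 0.55, so the replicate number was also fitted as a block. The pairing is not clear-cut, since Lv20NC replicate 3 and OV143 replicate 1 correlated at 0.54, and no label explains the numbers. With the block limma called 223 genes (1.94%), 74 of them higher (0.643%) and 149 lower (1.29%), and gave an unadjusted p under 0.05 for 2288 (19.9%), 1006 higher (8.74%) and 1282 lower. Without OV143 replicate 2, and with no block, limma called 513 genes (4.46%), 154 higher (1.34%) and 359 lower (3.12%), and gave an unadjusted p under 0.05 for 2446 (21.3%), 910 higher (7.91%) and 1536 lower (13.3%). Groups were then separate in 4663 genes (40.5%), 1950 higher (16.9%) and 2713 lower (23.6%). Fewer libraries separate more readily by chance, and leaving out any other single library also raised the count, to between 2872 and 4132. The same 197 genes were called with the block and without OV143 replicate 2, which is 88.3% of the block's calls and 38.4% of the calls made without that library. Below, "rose" and "fell" are used for genes called with the block, adjusted p-values are those of the fit with the block unless another fit is named, and log2 fold changes are differences in mean log2(FPKM + 1), with standard errors from the fit of all 6 libraries without the block. In bulk RNA a change in the share of cells that express a gene and a change in RNA per cell cannot be told apart. Nor can reads of overlapping genes on opposite strands, or of near-identical copies of a gene, since the labels do not say whether counting used the strand.

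A gene was said to hold without OV143 replicate 2 where its unadjusted p was under 0.05 in the same direction with and without that library and the OV143 libraries kept lay outside the range of Lv20NC both times. This was so for 1164 genes (10.1%), 459 higher (3.99%) and 705 lower (6.13%). Groups that are separate with all 6 libraries stay separate when that library is left out. The second fit could therefore fail such a gene only by its p-value. The median standard error was also smaller without that library, 0.0959 against 0.131, so passing again is a weak check. Of the 1304 genes with an unadjusted p under 0.05, 140 did not hold. The block's calls held for 222 of 223 genes. In 798 of the 1164 genes (68.6%) OV143 replicate 2 lay farther from Lv20NC than either other OV143 library. This was not particular to them. Over all 11506 genes tested that library was the highest of the 6 in 4424 and the lowest in 4309. The median size of the log2 fold change of the 1164 genes was 0.40 with OV143 replicate 2 and 0.33 without it. A log2 fold change of at least 1 in size was found in 29 of them, 7 higher and 22 lower.

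**Figure D1:**
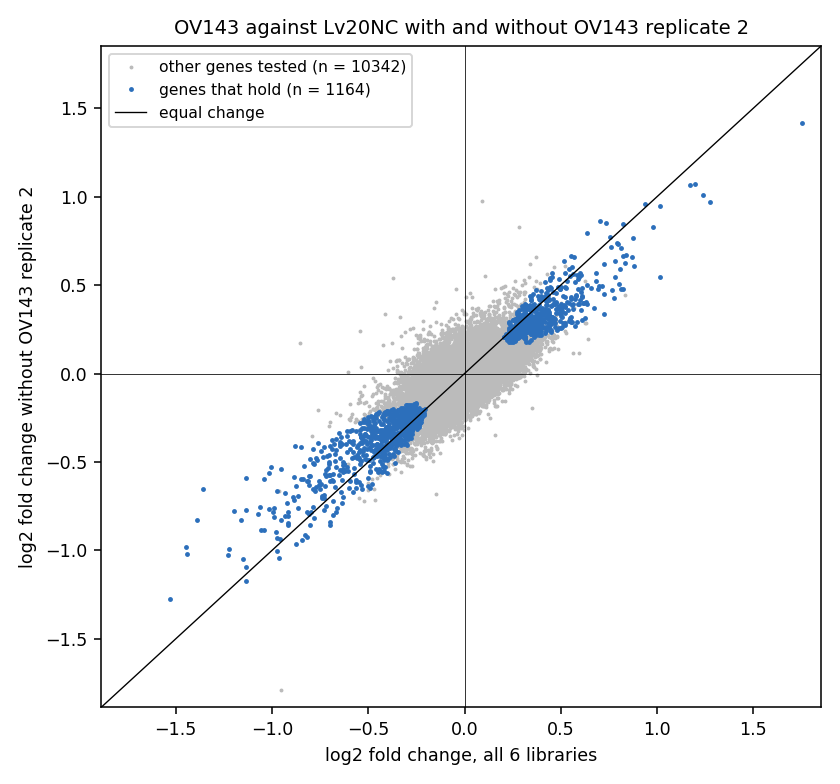
Each point is a gene, with its log2 fold change of OV143 against Lv20NC over all 6 libraries on the x axis and without OV143 replicate 2 on the y axis, both on the log2(FPKM + 1) scale. Blue points are the 1164 genes that hold and grey points the other genes tested; most blue points lie nearer 0 on the y axis than on the x axis.

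The largest rise was in ISG15, an interferon-induced ubiquitin-like protein (chromosome 6 from 63363201 to 63364211). It stood at 31.1, 39.0 and 33.9 FPKM in Lv20NC replicates 1 to 3 and at 94.8, 189 and 93.2 FPKM in OV143 replicates 1 to 3. The groups did not overlap, and OV143 replicates 1 and 3 were close to each other while replicate 2 was well above both. The means were 34.7 ± 4.01 and 126 ± 54.9 FPKM (SD, n = 3), and the log2 fold change was 1.75 ± 0.27 (SE, adjusted p = 0.00209 by limma with the block). Without OV143 replicate 2 it was 1.42.

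ADM, which encodes the vasodilator peptide adrenomedullin and is induced by low oxygen (chromosome 2 from 49229223 to 49231521), stood at 22.4, 24.02 and 24.02 FPKM in Lv20NC and at 47.0, 89.9 and 46.7 FPKM in OV143. It rose by a log2 fold change of 1.28 ± 0.24 (SE, adjusted p = 0.00802), or 0.97 without OV143 replicate 2. CCL5, a chemokine that draws T cells (chromosome 12 from 39652731 to 39659121), stood at 42.5, 50.1 and 37.8 FPKM in Lv20NC and at 93.7, 143 and 82.6 FPKM in OV143. Both genes kept all OV143 libraries above all control libraries. CCL5 rose by 1.24 ± 0.21 on the log2 scale (adjusted p = 0.00209), or 1.01 without OV143 replicate 2.

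FCGR3A, an Fc receptor best known from natural killer cells and macrophages (chromosome 4 from 88948357 to 88956513), stood at 13.6, 15.8 and 14.8 FPKM in Lv20NC and at 32.5, 41.9 and 31.6 FPKM in OV143. Its rise of 1.20 ± 0.13 (adjusted p = 0.00209) was close to that without OV143 replicate 2, 1.07. SPI1, a transcription factor of myeloid cells (chromosome 2 from 15227850 to 15245679), was low throughout, at 1.72, 1.44 and 1.82 FPKM in Lv20NC and 2.57, 9.30 and 3.22 FPKM in OV143. It was not called with the block (adjusted p = 0.0768), and its log2 fold change of 1.02 came down to 0.55 without OV143 replicate 2. The leukocyte markers fixed for the check of the cell line summed to 24.1 to 24.6 FPKM in Lv20NC and 24.2 to 26.2 FPKM in OV143, with LCP1 at 18.9 to 19.4 and 16.0 to 19.6 FPKM and the T cell gene CD3E at 0.22 to 0.33 and 0.33 to 0.51 FPKM. Only 4 of the 5 markers fixed had values, and PTPRC had none. Of a wider list of leukocyte genes 7 passed the filter, and 1 held, TYROBP, a signalling adaptor of Fc receptors, at 2.52 to 3.07 FPKM in Lv20NC and 3.57 to 6.01 FPKM in OV143 (adjusted p = 0.0805). Of all genes 3.99% held higher. The part of leukocyte RNA in the values of FCGR3A and SPI1 was not tested.

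SLC2A5, the fructose transporter GLUT5 of the brush border (chromosome 6 from 69507829 to 69535794), had close values within each group. It stood at 2.70, 2.71 and 2.46 FPKM in Lv20NC and at 6.02, 5.77 and 6.04 FPKM in OV143, so that OV143 replicate 2 was no outlier for this gene. Its log2 fold change was 0.94 ± 0.09 (adjusted p = 0.00582), and 0.96 without OV143 replicate 2.

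The calcium-binding S100 genes S100A8 and S100A12, neighbours on chromosome 4 that encode proteins released in inflammation, rose as well. S100A12 was the more abundant, at 259, 287 and 252 FPKM in Lv20NC and 418, 605 and 428 FPKM in OV143, a log2 fold change of 0.84 ± 0.16 (adjusted p = 0.00802). S100A8 stood at 20.8 to 31.9 FPKM in Lv20NC and 44.9 to 58.6 FPKM in OV143 (log2 fold change 0.88, adjusted p = 0.013). Also on chromosome 4, ECM1, an extracellular matrix protein, rose from between 74.2 and 82.5 FPKM to between 124 and 192 FPKM (log2 fold change 0.87, adjusted p = 0.00981). CRABP2, which carries retinoic acid into the nucleus, rose from between 36.5 and 41.7 FPKM to between 56.7 and 95.2 FPKM (log2 fold change 0.83, adjusted p = 0.012). CLPSL2, a colipase-like gene, was near the filter, at 0.70 to 2.06 FPKM in Lv20NC and 2.25 to 5.35 FPKM in OV143, and was called neither with the block (adjusted p = 0.102) nor without OV143 replicate 2 (adjusted p = 0.118).

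The largest fall was in CSF1, the growth factor of macrophages (chromosome 4 from 110178466 to 110198232). It stood at 188, 187 and 125 FPKM in Lv20NC and at 74.0, 39.0 and 60.9 FPKM in OV143. The groups did not overlap, although Lv20NC replicate 3 was well below the other controls. The means were 167 ± 36.2 and 58.0 ± 17.7 FPKM (SD, n = 3), and CSF1 fell by 1.53 ± 0.26 on the log2 scale (SE, adjusted p = 0.00802 by limma with the block), or by 1.28 without OV143 replicate 2.

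Among the other large falls, several were deepest in OV143 replicate 2. TRIB3, a pseudokinase induced by amino acid shortage (chromosome 17 from 34808273 to 34819592), stood at 72.9, 74.9 and 60.8 FPKM in Lv20NC and at 35.97, 12.4 and 33.3 FPKM in OV143. CHAC1, which breaks down glutathione (chromosome 1 from 130360510 to 130363332), stood at 154, 153 and 124 FPKM in Lv20NC and at 84.2, 24.2 and 76.0 FPKM in OV143. USP53, a tight junction protein of the deubiquitinase family (chromosome 8 from 104500204 to 104560711), stood at 35.9, 24.4 and 32.5 FPKM in Lv20NC and at 18.6, 3.62 and 19.6 FPKM in OV143. In all 3 genes OV143 replicate 2 was the lowest library by far. The groups were separate with it, so leaving it out could not have made them overlap. The log2 fold changes were -1.45, -1.39 and -1.36 for TRIB3, CHAC1 and USP53 with all libraries, and -0.98, -0.83 and -0.65 without OV143 replicate 2. Their adjusted p-values were 0.0221, 0.0427 and 0.0348 with the block.

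Other falls depended less on that library. FOSL1, a FOS-related transcription factor that is switched on by ERK signalling (chromosome 2 from 6430158 to 6436173), stood at 61.8, 60.1 and 43.2 FPKM in Lv20NC and at 24.02, 25.5 and 23.1 FPKM in OV143. It fell by 1.14 ± 0.15 on the log2 scale (adjusted p = 0.00353) and by 1.17 without OV143 replicate 2. PLK3, a stress-induced kinase (chromosome 6 from 166528760 to 166533734), stood at 23.7, 20.9 and 17.3 FPKM in Lv20NC and at 9.18, 7.43 and 9.56 FPKM in OV143 (log2 fold change -1.15 ± 0.15, adjusted p = 0.00582), or -1.05 without OV143 replicate 2. CDK5R1, the activator of CDK5 (chromosome 12 from 42456063 to 42494494), fell from between 4.86 and 6.57 FPKM to between 1.19 and 2.53 FPKM, lowest in replicate 2 (log2 fold change -1.23, adjusted p = 0.00802), and by 1.03 without that library. RNF39 and APOBEC1, named after their values were seen, also had close OV143 values: RNF39 fell from between 17.4 and 20.4 FPKM to between 7.69 and 8.58 FPKM and APOBEC1, the RNA-editing enzyme of enterocytes, from between 7.61 and 7.85 FPKM to between 3.14 and 3.83 FPKM (adjusted p = 0.00318 and 0.00582).

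**Figure D2:**
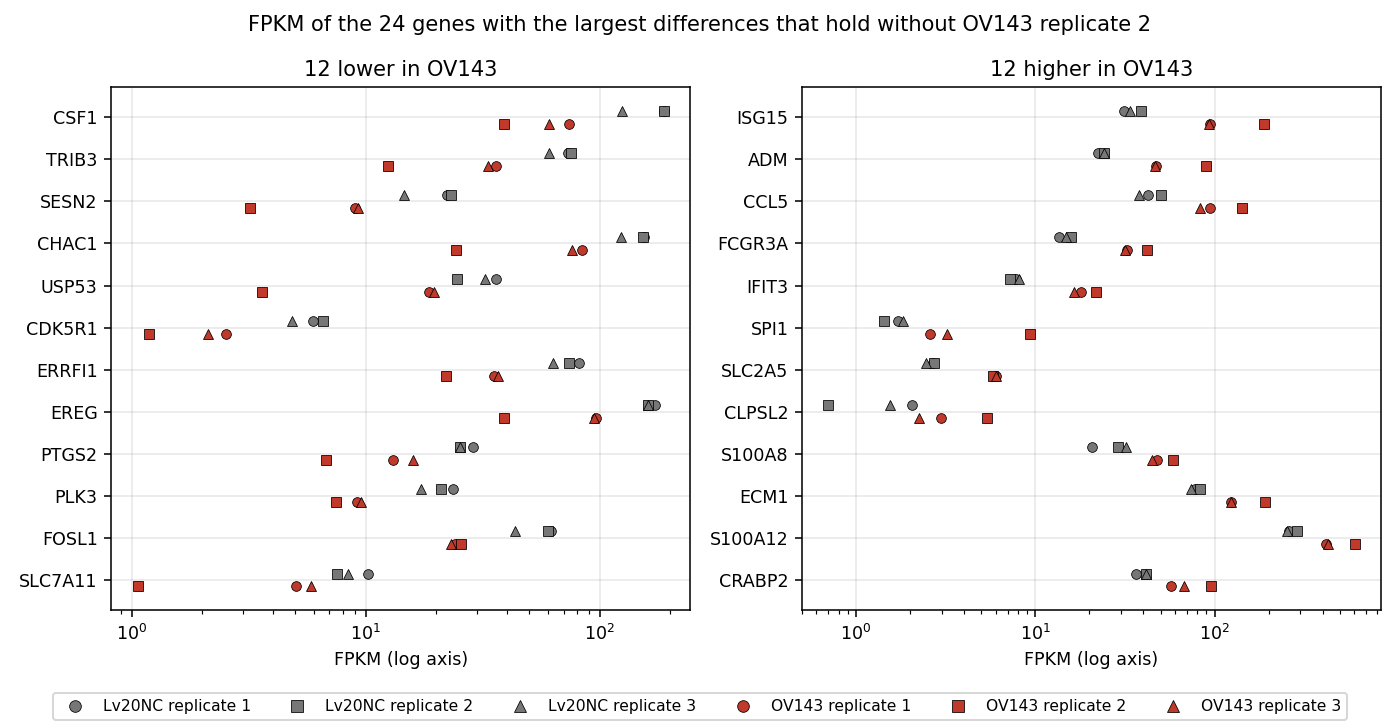
FPKM on a log axis in each of the 6 libraries for the 12 genes lowest (left) and the 12 highest (right) in OV143 against Lv20NC by log2 fold change, among those that hold without OV143 replicate 2. Grey marks are Lv20NC, red marks OV143, and the shape gives the replicate number; in every gene shown the red marks lie to one side of the grey ones, and the red square, OV143 replicate 2, is often the farthest.

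These 24 genes were taken from the ends of the same comparison, so how many were called is a description. With the block 22 of them were called (CLPSL2 and SPI1 were not), and without OV143 replicate 2, 23 were (CLPSL2 was not), against 1.94% and 4.46% of all genes tested. Each kept its direction in every alternative that tested it. Their groups were chosen not to overlap, so leaving out libraries or changing the pseudocount or filter could not have turned a direction.

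The list of genes reported in the literature as targets of miR-143 was the first group examined, since OV143 was built to raise that miRNA. Of 37 listed genes 35 passed the filter. The median log2 fold change of the list was -0.17, with 29 of 35 members lower, against -0.02 over all genes tested. Without OV143 replicate 2 the median was 0.04, against -0.02 over all genes. By library, the median difference from the Lv20NC mean was 0.02 in OV143 replicate 1, -0.50 in replicate 2 and -0.02 in replicate 3. The lower median of the list was thus seen in OV143 replicate 2 and not in the other OV143 libraries.

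Individual targets did hold: 6 of 35 were lower with and without that library and 0 were higher, where 6.13% of all genes held lower. With the block 3 fell, PTGS2 and KLF4 among them, where 1.29% of all genes did. Without OV143 replicate 2 limma called 6 of the 35 lower and 0 higher, where 3.12% of all genes were called lower. PTGS2, the inducible cyclooxygenase COX-2 that starts prostaglandin synthesis (chromosome 9 from 127850164 to 127858866), stood at 28.9, 25.2 and 25.4 FPKM in Lv20NC and at 13.1, 6.78 and 15.9 FPKM in OV143. It fell by 1.16 ± 0.27 on the log2 scale (SE, adjusted p = 0.013), or by 0.83 without OV143 replicate 2. KLF4, a transcription factor of differentiated gut epithelium (chromosome 1 from 248604817 to 248609574), stood at 52.9, 52.7 and 38.3 FPKM in Lv20NC and at 26.9, 14.7 and 26.9 FPKM in OV143. KLF4 fell by 1.07 ± 0.25 (adjusted p = 0.024), or by 0.80 without OV143 replicate 2, with no overlap between the groups.

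SMAD3, a mediator of TGF-beta signals, and JAG1, a Notch ligand, were lower in all OV143 libraries than in any control, at 21.4 to 28.7 against 34.2 to 38.6 FPKM for SMAD3 and 65.4 to 149 against 175 to 200.1 FPKM for JAG1. Neither was called with the block (adjusted p = 0.0686 and 0.058), and both were called without OV143 replicate 2 (adjusted p = 0.0476 and 0.0286).

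The other abundant targets overlapped between the groups or nearly so. The integrin gene ITGA6 stood at 215, 170 and 215 FPKM in Lv20NC and at 178, 84.1 and 176 FPKM in OV143, so that its log2 fold change of -0.52 became -0.17 without OV143 replicate 2. The hyaluronan receptor CD44 stood at 112 to 125 FPKM in Lv20NC and 108 to 118 FPKM in OV143 (log2 fold change -0.06 ± 0.09, adjusted p = 0.75). The log2 fold changes of MDM2, HK2, MYO6, FSCN1, ERBB3 and AKT1 lay between -0.40 and 0.20, with adjusted p-values of 0.191 to 0.719. Of these, HK2, a hexokinase often given as a miR-143 target, changed sign, from -0.19 to 0.06, when OV143 replicate 2 was left out, as did MYO6, from -0.20 to 0.08, and ERBB3, from -0.09 to 0.01.

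**Figure D3:**
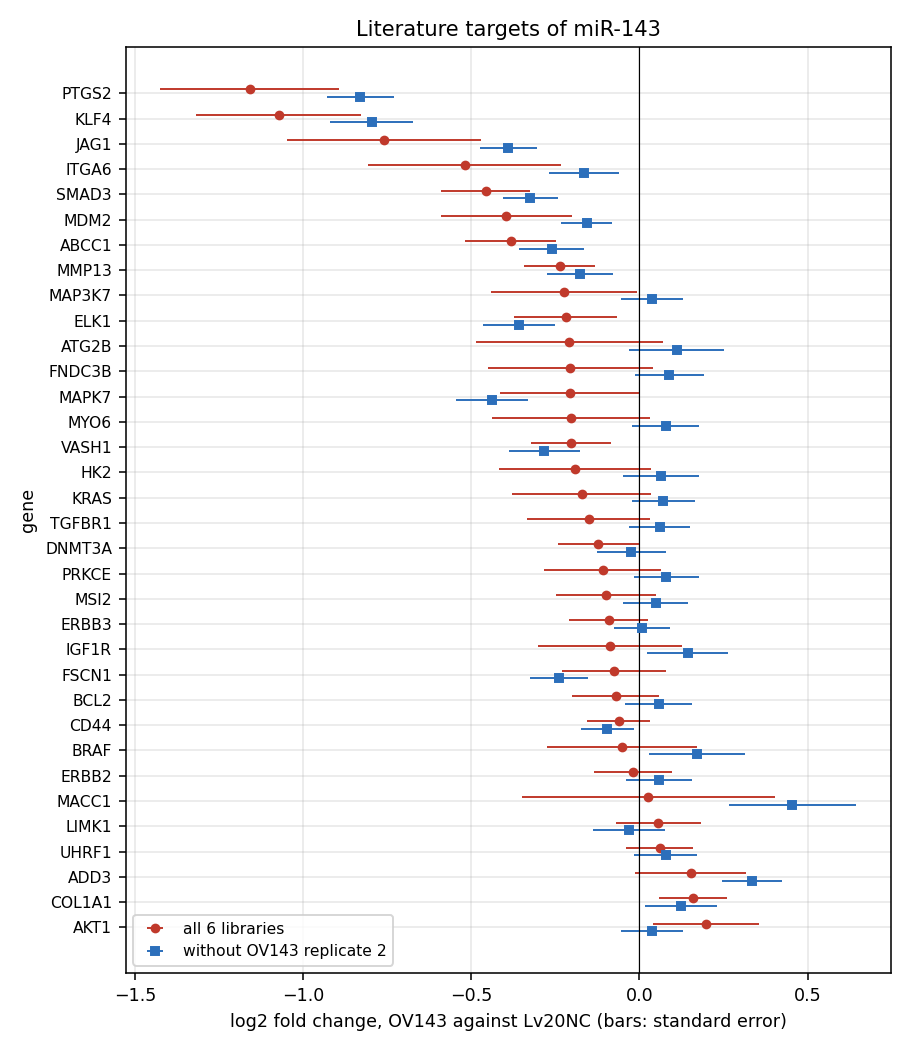
Log2 fold change of OV143 against Lv20NC for tested literature targets of miR-143, with bars of 1 standard error, over all 6 libraries (red circles) and without OV143 replicate 2 (blue squares). PTGS2, KLF4, JAG1 and SMAD3 are among the targets that stay below 0 in both, while the blue squares of many other targets lie at or above 0.

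Genes of the miRNA machinery differed little. Of 18 tested members of the list of processing and silencing factors the median log2 fold change was -0.02, 0 were called with the block, and 1 held, DDX5, an RNA helicase of the Microprocessor. Of all genes 6.13% held lower. DDX5 stood at 175 to 186 FPKM in Lv20NC and 130 to 146 FPKM in OV143 (log2 fold change -0.37 ± 0.09, adjusted p = 0.0856). XPO5, which exports precursor miRNAs, had a log2 fold change of -0.18 (adjusted p = 0.362), and AGO4, an Argonaute, one of -0.18 (adjusted p = 0.469).

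Interferon-stimulated genes, which interferons switch on against viruses, were higher as a group. Of 27 tested members 23 were higher and 13 held higher, with 0 held lower, where 3.99% of all genes held higher. The median log2 fold change was 0.31, and 0.29 without OV143 replicate 2, against -0.02 over all genes. It was similar in the 3 OV143 libraries, at 0.29, 0.33 and 0.31. With the block 5 members rose, ISG15, IFIT3, IFIT1, MX1 and IFI6, where 0.643% of all genes rose.

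IFIT3, which binds viral RNA in a complex with IFIT1, stood at 7.84, 7.18 and 8.09 FPKM in Lv20NC and at 17.9, 21.7 and 16.5 FPKM in OV143 (log2 fold change 1.17 ± 0.12, adjusted p = 0.00478). IFIT1 stood at 3.04, 3.46 and 3.35 FPKM in Lv20NC and at 6.82, 5.06 and 6.64 FPKM in OV143, with OV143 replicate 2 the lowest of the OV143 libraries (log2 fold change 0.74 ± 0.13, adjusted p = 0.0209). Both genes lie on chromosome 14, from 101214730 to 101225169 and from 101237403 to 101249486, and reads of related IFIT genes may be split between them. MX1, a GTPase that traps viral capsids, rose from between 12.1 and 13.0 FPKM to between 16.4 and 20.7 FPKM (log2 fold change 0.52, adjusted p = 0.0427). IFI6, named after its values were seen, rose from between 9.28 and 10.9 FPKM to between 14.9 and 25.3 FPKM (adjusted p = 0.0342). Both vectors were lentiviral, and the labels give no dose of virus for either, so a difference between the vector preparations and an effect of the cargo cannot be told apart.

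Genes that sense double-stranded RNA differed less. Of 12 tested members the median log2 fold change was 0.07, 0 were called with the block, and 1 held, DHX58, the sensor LGP2, at 1.56 to 1.83 FPKM in Lv20NC and 2.26 to 2.91 FPKM in OV143 (adjusted p = 0.115). Of all genes 3.99% held higher. Without OV143 replicate 2 limma called 1 other member, which was lower, where 3.12% of all genes were called lower. EIF2AK2, the kinase PKR, had a log2 fold change of 0.20 (adjusted p = 0.338). The median turned to -0.02 when libraries were scaled to equal FPKM sums, so the direction of this list is not settled.

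Inflammatory genes under NF-kB, the transcription factor of cytokine responses, were lower as a group, in contrast to the interferon-stimulated genes. Of 22 tested members 21 were lower and 13 held lower, with CCL5 the single member that was higher and held, where 6.13% of all genes held lower. The median log2 fold change was -0.45, and -0.39 without OV143 replicate 2. It was -0.38, -0.50 and -0.49 in OV143 replicates 1, 2 and 3. With the block 7 members fell and CCL5 rose, where 1.29% and 0.643% of all genes did.

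CCL20, a chemokine of gut epithelium that attracts dendritic cells and lymphocytes (chromosome 15 from 129172743 to 129176069), stood at 200.5, 218 and 199 FPKM in Lv20NC and at 123, 114 and 120.1 FPKM in OV143. The OV143 libraries were close together and well below the controls, and CCL20 fell by 0.79 ± 0.09 on the log2 scale (adjusted p = 0.00802). TNFAIP2, which is induced by TNF, stood at 77.3, 78.6 and 71.5 FPKM in Lv20NC and at 49.0, 42.7 and 43.5 FPKM in OV143 (log2 fold change -0.74 ± 0.10, adjusted p = 0.00802). LIF, a cytokine of the interleukin-6 family, fell from between 7.08 and 8.89 FPKM to between 3.92 and 4.39 FPKM (log2 fold change -0.82, adjusted p = 0.0105). IL1A, TNFAIP3 and CXCL8, named after their values were seen, fell as well. The alarmin IL1A went from between 52.2 and 65.0 FPKM to between 23.7 and 38.5 FPKM, TNFAIP3, the NF-kB inhibitor A20, from between 45.2 and 57.5 FPKM to between 16.0 and 36.1 FPKM, and the neutrophil chemokine CXCL8 from between 27.9 and 32.0 FPKM to between 15.7 and 22.6 FPKM, with adjusted p-values of 0.0179, 0.0205 and 0.0218.

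Immediate early genes and feedback genes of the MAP kinase pathway, which respond to growth factors within minutes, were lower. Of 26 tested members 23 were lower and 13 held lower, while 1 held higher, and the median log2 fold change was -0.38, or -0.26 without OV143 replicate 2. With the block 7 fell and 0 rose. Over all genes 6.13% held lower and 1.29% fell with the block. EGR1, a zinc finger transcription factor (chromosome 2 from 140440829 to 140445302), stood at 236, 191 and 212 FPKM in Lv20NC and at 134, 86.8 and 127 FPKM in OV143 (log2 fold change -0.89 ± 0.18, adjusted p = 0.00802), or -0.70 without OV143 replicate 2. DUSP5, a phosphatase that inactivates ERK, stood at 69.9, 65.5 and 68.7 FPKM in Lv20NC and at 44.2, 45.2 and 44.5 FPKM in OV143. The 3 OV143 libraries of DUSP5 were nearly equal, and it fell by 0.60 ± 0.08 on the log2 scale (adjusted p = 0.0171).

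PHLDA1, a feedback gene of growth factor receptors, fell from between 24.5 and 28.2 FPKM to between 9.17 and 15.6 FPKM (log2 fold change -0.997, adjusted p = 0.00918). EGR3, FOS and KLF10, named after their values were seen, also fell, with log2 fold changes of -1.01, -0.54 and -0.74 and adjusted p-values of 0.009, 0.0342 and 0.0468. JUN, the AP-1 partner of FOS and the 1 member that held higher, was also named after its values were seen. It stood at 95.3, 96.3 and 92.3 FPKM in Lv20NC and at 117, 126 and 121 FPKM in OV143 (log2 fold change 0.35 ± 0.09), and was not called with the block (adjusted p = 0.0889), but was without OV143 replicate 2 (adjusted p = 0.0323).

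The EGF-family list showed the same direction in all of its 11 tested members, although its median of -0.33 came down to -0.14 without OV143 replicate 2. Of these, 4 held lower and 3 fell with the block, against 6.13% and 1.29% of all genes. The list holds EGF-family ligands, the receptor genes EGFR, ERBB2 and ERBB3, and regulators, among them LRIG1, ADAM17 and the receptor's own feedback inhibitor. Among the ligands, HBEGF (chromosome 2 from 142102455 to 142115192) stood at 107, 105 and 90.3 FPKM in Lv20NC and at 53.6, 38.7 and 54.8 FPKM in OV143, and fell by 1.04 ± 0.15 (adjusted p = 0.00802), or by 0.88 without OV143 replicate 2. EREG, epiregulin (chromosome 8 from 70351316 to 70372530), stood at 172, 161 and 160 FPKM in Lv20NC and at 96.7, 39.0 and 94.2 FPKM in OV143, and fell by 1.20 ± 0.32 (adjusted p = 0.0217), or by 0.77 without OV143 replicate 2. Both ligands were lower in every OV143 library than in any control. AREG, amphiregulin, was lower too, at 36.9 to 73.4 FPKM against 80.3 to 103 FPKM, but was not called with the block (adjusted p = 0.0668). ERRFI1, the feedback inhibitor MIG6 (chromosome 6 from 68667651 to 68682629), stood at 81.8, 74.0 and 63.3 FPKM in Lv20NC and at 35.4, 21.9 and 36.6 FPKM in OV143, and fell by 1.22 ± 0.20 (adjusted p = 0.00802), or by 0.99 without OV143 replicate 2.

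YAP, the transcriptional coactivator that reads cell density and tension, was listed with its partners and target genes, and all 14 tested members were lower, YAP1, WWTR1 and TEAD1 among them, which are not targets. The median log2 fold change was -0.44, or -0.29 without OV143 replicate 2, 9 members held lower, and with the block 4 fell, against 6.13% and 1.29% of all genes. F3, the tissue factor that starts blood clotting (chromosome 4 from 122827018 to 122837673), was the most abundant of those named, at 944, 985 and 824 FPKM in Lv20NC and 545, 361 and 497 FPKM in OV143. It fell by 0.99 ± 0.18 (adjusted p = 0.012), or by 0.81 without OV143 replicate 2. AMOTL2, a junction protein that binds YAP, stood at 67.7, 59.5 and 60.6 FPKM in Lv20NC and at 36.8, 18.9 and 36.5 FPKM in OV143 (log2 fold change -1.06 ± 0.24, adjusted p = 0.012), or -0.75 without OV143 replicate 2. ANKRD1 and CTGF, the second of them named after its values were seen, fell by 0.84 and 0.77 on the log2 scale (adjusted p = 0.0221 and 0.0277). The kinase gene AXL was at 21.3 to 24.4 FPKM in OV143 and 28.1 to 30.6 FPKM in Lv20NC (adjusted p = 0.105).

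Genes of the amino acid response, which the transcription factor ATF4 induces when amino acids run short, had the same direction. Of 24 tested members 23 were lower and 13 held lower, the median log2 fold change was -0.44, or -0.32 without OV143 replicate 2, and with the block 5 fell. Of all genes 6.13% held lower and 1.29% fell. Beside TRIB3 and CHAC1 above, these were SESN2, SLC7A11 and SLC7A1. SESN2, sestrin 2, a leucine sensor upstream of mTORC1 (chromosome 6 from 85321982 to 85348044), stood at 22.3, 23.1 and 14.5 FPKM in Lv20NC and at 9.01, 3.20 and 9.31 FPKM in OV143 (log2 fold change -1.44 ± 0.36, adjusted p = 0.0313). SLC7A11, the cystine transporter (chromosome 8 from 88608083 to 88690589), stood at 10.2, 7.55 and 8.36 FPKM in Lv20NC and at 5.03, 1.06 and 5.83 FPKM in OV143, and its log2 fold change of -1.14 (adjusted p = 0.0438) came to -0.59 without OV143 replicate 2. Both were lowest in OV143 replicate 2. SLC7A1, the transporter of cationic amino acids, fell by 0.88 on the log2 scale (adjusted p = 0.0348). SLC3A2, the partner chain of such transporters, was at 48.4 to 60.8 FPKM against 65.4 to 99.0 FPKM (adjusted p = 0.0725). In this list the Lv20NC libraries also differed among themselves, with list medians of 0.07, 0.13 and -0.20 relative to their mean. The list medians of OV143 replicates 1, 2 and 3 were -0.33, -0.78 and -0.28, so Lv20NC replicate 3 lay near OV143 replicates 1 and 3.

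Chaperones and other genes of the unfolded protein response in the endoplasmic reticulum differed in the opposite sense and by less. Of 20 tested members 6 held higher and 1 lower, where 3.99% and 6.13% of all genes did. The median log2 fold change was 0.23, or 0.19 without OV143 replicate 2, but 0 were called with the block. Without OV143 replicate 2 limma called 3 higher and 1 lower, where 1.34% and 3.12% of all genes were called. PDIA4, a protein disulphide isomerase, stood at 210.2, 223 and 221 FPKM in Lv20NC and at 274, 277 and 275 FPKM in OV143 (log2 fold change 0.34 ± 0.09, adjusted p = 0.106). CALR, calreticulin, stood at 454 to 485 FPKM in Lv20NC and 570 to 607 FPKM in OV143 (adjusted p = 0.134). The member that held lower was ERN1, the stress sensor IRE1, at 6.67 to 7.75 FPKM in Lv20NC and 2.51 to 5.10 FPKM in OV143 (adjusted p = 0.058).

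Genes of mitosis were higher in OV143. Of 30 tested members of the G2/M list 29 were higher and 15 held higher, where 3.99% of all genes did, with 0 held lower. The median log2 fold change was 0.32, and 0.35 without OV143 replicate 2, and OV143 replicates 1, 2 and 3 gave list medians of 0.32, 0.23 and 0.38. OV143 replicate 2 was thus the nearest to the control here. With the block 4 rose, where 0.643% of all genes did: KIF20A, CKS2, BIRC5 and CDC20, the last 2 named after their values were seen. KIF20A, a kinesin of the dividing cell's midzone (chromosome 2 from 140202316 to 140213144), stood at 16.4, 16.9 and 17.4 FPKM in Lv20NC and at 23.1, 25.9 and 25.3 FPKM in OV143 (log2 fold change 0.52 ± 0.09, adjusted p = 0.031).

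CKS2, a subunit of cyclin-dependent kinases, stood at 100.2, 121 and 120.5 FPKM in Lv20NC and at 152, 244 and 169 FPKM in OV143 (log2 fold change 0.70 ± 0.18, adjusted p = 0.0209). BIRC5, survivin, and CDC20, an activator of the anaphase-promoting complex, rose by 0.56 and 0.62 on the log2 scale (adjusted p = 0.0463 and 0.0438). CCNB1, cyclin B1, had tight groups, at 75.8, 76.1 and 74.5 FPKM in Lv20NC and 98.3, 104 and 103 FPKM in OV143. Its log2 fold change of 0.43 ± 0.08 was not called with the block (adjusted p = 0.053) and was called without OV143 replicate 2 (adjusted p = 0.0124), as was that of the kinase gene CDK1 (0.43, adjusted p = 0.058 and 0.0329).

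The list of G1/S and replication genes did not share the pattern. Of 32 tested members 18 were higher and 14 lower, 1 held each way, 0 were called with the block, and the median log2 fold change was 0.02, or 0.03 without OV143 replicate 2, close to the -0.02 of all genes, and -0.094 when libraries were scaled to equal FPKM sums. Of all genes 3.99% held higher and 6.13% lower. CCND1, the cyclin that growth factor signals induce in G1, was the member that held lower. It stood at 22.1, 21.6 and 20.9 FPKM in Lv20NC and at 15.2, 14.8 and 16.1 FPKM in OV143 (log2 fold change -0.46 ± 0.09, adjusted p = 0.0513 in the block fit, or 0.0136 when OV143 replicate 2 was left out). ORC1, of the replication origin complex, held higher, at 17.7 to 18.4 FPKM against 20.9 to 22.3 FPKM (adjusted p = 0.225).

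Of 21 tested p53 targets 8 held lower and 0 higher, where 6.13% and 3.99% of all genes did, with a median log2 fold change of -0.16 both with and without OV143 replicate 2. With the block 2 fell, against 1.29% of all genes, SESN2 and BBC3, which encodes the cell death protein PUMA and went from between 5.89 and 8.72 FPKM to between 3.25 and 5.35 FPKM (log2 fold change -0.75, adjusted p = 0.0342). SESN2 is also on the amino acid response list. The nuclease gene AEN and the antiproliferative gene BTG2 were lower in each OV143 library than in any control, with log2 fold changes of -0.38 and -0.35 (adjusted p = 0.0782 and 0.106).

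Genes that respond to low oxygen or serve glycolysis were mostly higher, and more so in OV143 replicate 2. Of 31 tested members 26 were higher, 11 held higher and 2 held lower, where 3.99% and 6.13% of all genes held, and the median log2 fold change was 0.30, or 0.17 without OV143 replicate 2. The list median was 0.14 and 0.22 in OV143 replicates 1 and 3 and 0.54 in replicate 2. With the block 5 rose, where 0.643% of all genes did: ADM, EGLN3, and, named after their values were seen, ANKRD37, BNIP3 and P4HA1. EGLN3, an oxygen-sensing prolyl hydroxylase (chromosome 7 from 65805513 to 65833536), stood at 18.7, 20.7 and 24.1 FPKM in Lv20NC and at 33.4, 40.9 and 38.2 FPKM in OV143 (log2 fold change 0.80 ± 0.13, adjusted p = 0.00802).

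The members that fell were PFKFB3 and VEGFA, both known as genes induced by low oxygen, so the list did not move as one. PFKFB3, a regulator of glycolysis, stood at 10.3, 8.78 and 7.37 FPKM in Lv20NC and at 5.31, 4.84 and 5.21 FPKM in OV143 (log2 fold change -0.67 ± 0.13, adjusted p = 0.0219). VEGFA, the growth factor of blood vessels, stood at 67.2, 67.02 and 59.8 FPKM in Lv20NC and at 45.5, 34.4 and 45.1 FPKM in OV143 (log2 fold change -0.63 ± 0.13, adjusted p = 0.031). ANKRD37, BNIP3 and P4HA1 rose by 0.82, 0.73 and 0.55 on the log2 scale (adjusted p = 0.0342, 0.0427 and 0.0269).

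The BMP and TGF-beta feedback list split. Of 17 tested members 3 held higher and 6 lower, where 3.99% and 6.13% of all genes did, and its median log2 fold change of -0.15 became 0.06 without OV143 replicate 2. ID1 and ID3, inhibitors of differentiation that BMP signals induce, rose with the block and were named after their values were seen. ID3 stood at 155, 177 and 131 FPKM in Lv20NC and at 213, 302 and 196 FPKM in OV143 (log2 fold change 0.60 ± 0.19, adjusted p = 0.0218), and ID1 rose by 0.52 (adjusted p = 0.035). SMAD7, an inhibitor of TGF-beta receptors, stood at 14.3, 15.7 and 12.2 FPKM in Lv20NC and at 8.06, 7.41 and 8.55 FPKM in OV143, and fell by 0.74 ± 0.12 (adjusted p = 0.0194). BMP2, a ligand, was at 8.17 to 10.5 FPKM against 12.2 to 14.0 FPKM (adjusted p = 0.0788).

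Ribosomal protein genes were higher in all 72 members tested, with a median log2 fold change of 0.29, yet 0 of them held, 0 had an unadjusted p under 0.05 with all 6 libraries and 0 were called with the block or without OV143 replicate 2. RPL23 had the smallest p, with an adjusted p of 0.119 with the block and 0.22 without OV143 replicate 2. The list median was 0.05, 0.73 and 0.13 in OV143 replicates 1, 2 and 3, and 0.09 over the comparison without replicate 2. In Lv20NC the list medians were -0.10, 0.16 and -0.06, so that replicate 2 was the highest library of either group. Nuclear genes of the respiratory chain had the same profile. Their median log2 fold change was 0.19 over 34 tested members and 0.03 without OV143 replicate 2. Of these members 1 held higher, NDUFA1 (adjusted p = 0.0794), where 3.99% of all genes did. The part that a difference between libraries of replicate number 2 and the others had in these values was not tested.

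**Figure D4:**
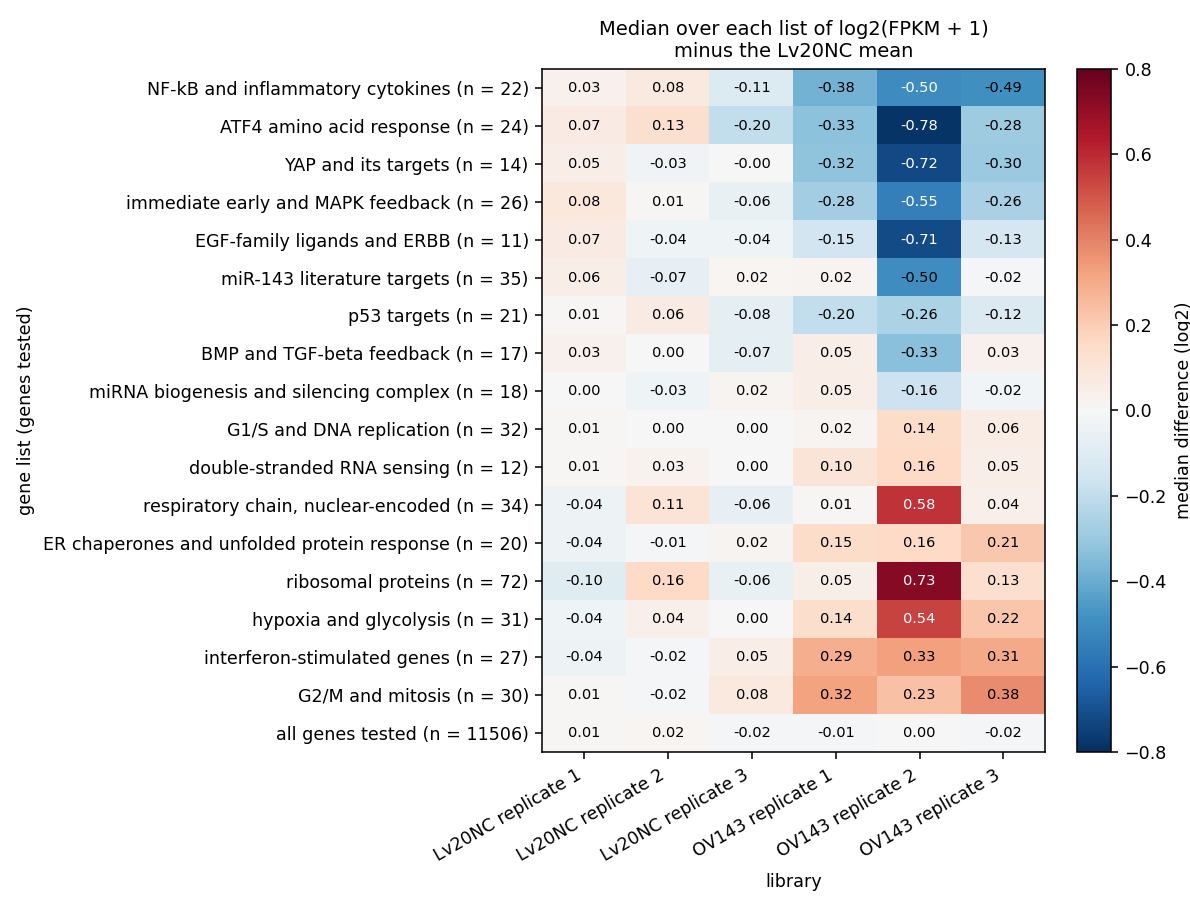
Median over each gene list of log2(FPKM + 1) minus the mean of the Lv20NC libraries, in each of the 6 libraries, with the number of genes tested in brackets; blue is lower and red higher. The NF-kB, interferon-stimulated and G2/M lists have similar values in the 3 OV143 libraries. Several lists stand out in OV143 replicate 2, among them the miR-143 target, ribosomal protein and respiratory chain lists. The EGF-family, YAP, immediate early, amino acid response and BMP and TGF-beta lists also do.

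The values in the vector labelled Lv143KD were set beside these. That vector was measured in another table, normalised separately, with its own control Lv3NC, and the series text and the sample label name different miRNAs as its target. Of the 1164 genes that held in OV143, 1114 were tested there, and 520 of them (46.7%) had the opposite sign, while 51.9% did over all 11142 genes that were tested for both vectors. Of the 24 genes with the largest differences 11 had the opposite sign in Lv143KD and 0 were called there by limma. ISG15, the largest rise in OV143, had a log2 fold change of 0.09 ± 0.28 in Lv143KD against Lv3NC, and CSF1, the largest fall, one of -0.02 ± 0.69 (SE, n = 3 in each group). The standard errors there were larger than those in OV143. PTGS2 and KLF4 had log2 fold changes of 0.11 ± 0.49 and -0.34 ± 0.68 in Lv143KD, and the list of miR-143 targets a median of 0.02 over 35 genes. The amino acid response list had a median of -0.22 there, with 23 of 24 members lower, and the p53 list one of -0.11, with 19 of 21 lower, against -0.02 over all genes. Both lists thus had medians below that of all genes under either vector. The medians in Lv143KD were 0.08 for interferon-stimulated genes, 0.05 for NF-kB, -0.06 for immediate early genes, -0.05 for hypoxia and glycolysis and -0.02 for G2/M.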

How the data were processed

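RNA sequencing of total RNA from IPEC-J2 cells gave the 6 libraries compared here, 3 of OV143 and 3 of Lv20NC, grouped by their labels. For these 6 libraries alone there is a table of FPKM per gene, made by the authors, as its header names the columns and with 2 decimals. Its values are used as deposited, in FPKM. The genome build is Sscrofa11.1 per the submitters' processing notes. The aligner, counter, annotation and strand setting were not given in the sources used here. Read depth is unknown: the spacing of low values did not give whole reads (22.1% to 29.9% of genes within 0.2 log2 units of an equal step), so precision rests on the SD over 3 libraries and on the standard error of the fit, whose median was 0.131, 0.11 with the block and 0.0959 without OV143 replicate 2.

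A symbol and coordinates in Sscrofa11.1 were found in a RefSeq gene table for 16949 of 17001 genes. The scale was log2(FPKM + 1), on which the changes of low genes are understated, and 11506 genes that reached 1 FPKM in 3 or more libraries were tested. They were fitted with limma 3.58.1 in R 4.3.3 (trended empirical Bayes, two-sided, Benjamini-Hochberg adjustment over all genes tested, called at an adjusted p under 0.05). The fit was also run on simulated data, with noise drawn independently for each library. That run does not bear on the library that stands apart or on the pairing of replicates. After the group means were removed, OV143 and Lv20NC libraries of replicate number 1, 2 and 3 correlated at 0.23, 0.72 and 0.55, each above the limit of 0.1 set for pairing. These 3 values are not independent, since deviations within a group cancel out. Unlike numbers correlated at -0.68 to 0.54, with Lv20NC replicate 3 and OV143 replicate 1 at 0.54 and Lv20NC replicate 1 and OV143 replicate 3 at 0.18, so the pairing is not clear-cut. A fit blocked on that number was therefore run as an alternative to the fit without it, which called 0 genes. Rises, falls and adjusted p-values in the text are those of the blocked fit unless another is named. No label explains the numbers.

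Named genes were the 12 highest and 12 lowest by log2 fold change among genes that hold and have a symbol, the 10 largest each way called with the block, up to 4 members with the smallest p of each list described, and the 12 most abundant miR-143 targets. For 1 gene within this rule no values are reported here, though list counts and medians cover all members. Genes outside this rule are marked as named after their values were seen. The members and the lists were chosen with earlier results of these data known, and the lists are of general knowledge, not of an annotation database. Alternatives were pseudocounts of 0.1 and 5, no filter and a filter of 5 FPKM, 3 further scalings, library weights, no variance trend, the block and leaving out libraries. Lv143KD was fitted with limma in its own table. Counts of miR-143 seed matches were not made, since no transcript sequence was used here.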

Additional observations from a re-analysis of the deposited data

How the results depend on the processing

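The count of genes called was 0 in the fit without the block and 6 after quantile normalisation (4 higher, 2 lower), 223 with the replicate block and 2283 with library weights, which gave OV143 replicate 2 a weight of 0.088. Leaving out 1 library gave 0 to 513 calls, the 513 without OV143 replicate 2. Fits with the replicate block and 1 replicate number left out gave 705, 1466 and 297 calls (without 1, 2 and 3), from 1 residual degree of freedom per gene, so that their p-values rest on variance shared over all genes. Genes with an unadjusted p under 0.05 numbered 1304, against 2288 with the replicate block, 4018 with library weights, 2316 and 2962 with the block and without replicate number 1 or 2, and 608 to 2446 with 1 library left out (608 without Lv20NC replicate 1, 771 without Lv20NC replicate 2, 2446 without OV143 replicate 2). Separated groups numbered 2519, and 2872 to 4663 with 1 library left out. Genes that hold numbered 1164, and 1880 with library weights. Higher genes made up 39.1% of those with an unadjusted p under 0.05, 20.2% after scaling to equal FPKM sums, 47.2% after median of ratios scaling and 50.3% after quantile normalisation; of the genes that hold they made up 39.4%, 19.5%, 46.7% and 49.7%. Scaling to equal sums moved the median of all genes from -0.02 to -0.12. It moved list medians to -0.11 (miRNA machinery), -0.019 (double-stranded RNA sensing), 0.22 (interferon-stimulated), -0.56 (NF-kB), -0.094 (G1/S), 0.20 (G2/M), -0.27 (p53) and 0.11 (unfolded protein response). The interferon-stimulated median was 0.37 and 0.18 with pseudocounts of 0.1 and 5, the NF-kB median -0.36 with a pseudocount of 5, the double-stranded RNA sensing median -0.059 with the filter of 5 FPKM, the G2/M median 0.39 with library weights and the unfolded protein response median 0.14 after quantile normalisation. With 1 library left out, list medians ran from -0.21 to 0.038 (miR-143 targets), 0.29 to 0.35 (interferon-stimulated), -0.27 to -0.12 (p53), 0.19 to 0.24 (unfolded protein response) and -0.26 to 0.057 (BMP and TGF-beta). With the block and a replicate number left out they reached 0.023 (double-stranded RNA sensing, without 1), 0.23 and 0.38 (interferon-stimulated, without 2 and 3), -0.23 (p53, without 3) and 0.18 (unfolded protein response, without 2). Of the 36 lists with more than 2 tested members, 13 had a median that changed sign under some alternative, 8 of which are not among the lists described with the results. The other 5 were miR-143 targets (without OV143 replicate 2, and 0.0098 with library weights), miRNA machinery (0.017 without OV143 replicate 2), BMP and TGF-beta (without OV143 replicate 2), double-stranded RNA sensing (both values above that are below 0) and G1/S (equal sums). Counts of seed matches were not run. With 3 libraries a group, unknown depth and 1 library that stands apart, small differences were not detectable, and the cause of the changes between settings was not tested.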

Other observations

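Genes of the brush border and of secretory epithelium, the differentiated cells of the gut lining, did not move as one list. Of 18 tested brush border genes the median log2 fold change was 0.02, with 3 that held higher and 2 lower, where 3.99% and 6.13% of all genes did. Beside SLC2A5, ANPEP, the aminopeptidase N of enterocytes, rose with the block, from 0.84, 0.90 and 0.79 FPKM in Lv20NC to 2.03, 2.74 and 1.99 FPKM in OV143 (log2 fold change 0.81 ± 0.11, adjusted p = 0.00808 by limma). Every OV143 library was above every control, but ANPEP was under 1 FPKM in all 3 controls and so was tested only because it was higher in OV143. AGR2, which is given below, reached 1 FPKM in 2 controls and likewise needed the OV143 libraries to be tested. KLF5, a transcription factor of proliferating gut epithelium, fell with KLF4, at 96.4, 69.6 and 77.3 FPKM in Lv20NC and 62.1, 32.9 and 62.0 FPKM in OV143 (log2 fold change -0.67 ± 0.25, adjusted p = 0.0378 by limma with the block and 0.0994 without OV143 replicate 2). At low levels, AGR2, a disulphide isomerase of mucus-secreting cells, rose at 0.73 to 1.09 FPKM in Lv20NC and 1.5 to 3.37 FPKM in OV143 (adjusted p = 0.0194 by limma with the block).

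In other lists single members stood out. SNAI1, a repressor of epithelial adhesion genes, stood at 21.1, 21.8 and 17.2 FPKM in Lv20NC and at 9.09, 11.04 and 9.21 FPKM in OV143, and fell by 0.96 ± 0.13 on the log2 scale (adjusted p = 0.00582 by limma with the block), or by 1.04 without OV143 replicate 2, while TGFBI, an adhesion protein that TGF-beta induces, rose from between 15.4 and 16.4 FPKM to between 21.9 and 22.7 FPKM (adjusted p = 0.0459). The median of these 12 tested regulators of epithelial and mesenchymal state was 0.04. KRT80, a keratin of stratified epithelia, fell by 0.95 (adjusted p = 0.00889), where the median of 20 keratin and adhesion genes was -0.03. SRSF6, a splicing factor, stood at 58.7, 55.9 and 55.6 FPKM in Lv20NC and at 34.9, 35.7 and 30.9 FPKM in OV143, and fell by 0.73 ± 0.10 (adjusted p = 0.00802), or by 0.77 without OV143 replicate 2, where the median of 17 splicing factors was 0.05. PTGS1, the constitutive cyclooxygenase, fell beside PTGS2, from between 22.8 and 32.9 FPKM to between 11.2 and 17.4 FPKM (log2 fold change -0.92, adjusted p = 0.0297). MT-2B, a metallothionein, stood at 858, 988 and 703 FPKM in Lv20NC and at 444, 628 and 499 FPKM in OV143 (log2 fold change -0.70 ± 0.18, adjusted p = 0.0209), in a list of 7 metallothionein and zinc genes with a median of -0.28. Reads of near-identical metallothionein genes may be split between copies.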
